A study of Bos taurus with 129 samples.

Results

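The genes described are 10 zinc-handling genes measured in blood of beef steers: the metallothioneins MT1A, MT1E and MT2A, the metal-sensing transcription factor MTF1, and the zinc exporters SLC30A1, SLC30A4, SLC30A5, SLC30A6, SLC30A7 and SLC30A9. They were taken by name from a list of 10 symbols. All 10 were among the 32395 gene rows of the count table and all 10 passed the filter on low counts, which left 18937 genes. Whole blood RNA was sequenced from 26 steers bled into stabilizing tubes on day 0, when the trial began, and 4 more times (days 13, 28, 45 and 60). Each steer gave 5 libraries, except that 1 library (healthy AAC animal 48, day 13) was not part of the table. The steers received 1 of 3 trace mineral supplements that carried copper, cobalt, manganese and zinc. INR (11 steers, 55 libraries) supplied the metals as sulfates, AAC (8 steers, 39 libraries) supplied them complexed to amino acids, and COMBO (7 steers, 35 libraries) supplied the same complexes plus an oral mineral drench given before shipment, on day 0 and with any treatment for illness. A steer carried the label BRD (14 steers, 70 libraries) if it was ever diagnosed with bovine respiratory disease during the 60 days, and healthy (12 steers, 59 libraries) otherwise. The label does not say whether a steer was ill when it was bled. All steers were vaccinated and given a dewormer on day 0 and vaccinated again on day 21. No group went without a supplement, the day 0 blood was drawn before any supplemented feed but after the first drench of COMBO, and the healthy and BRD steers of COMBO carried different pen labels, so pen group and disease label cannot be told apart there. The labels give each steer 1 pen, and the study's methods state that steers were moved between pens at set intervals, so the label marks a group of steers and not a fixed place. Each of the 7 pen groups received 1 supplement: the healthy COMBO steers came from 1 pen group and the healthy INR steers from 2 others.

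Metallothioneins are small cysteine-rich proteins that bind zinc and copper in the cytosol, and their genes are textbook readouts of cellular zinc. MTF1 is activated by free zinc and drives transcription of metallothionein genes and of SLC30A1, whose product moves zinc out across the plasma membrane. The other exporters work inside the cell. SLC30A5 and SLC30A6 form a heterodimer that loads zinc into the early secretory pathway, SLC30A7 loads it into the Golgi apparatus and SLC30A4 into endosomal and secretory vesicles, while SLC30A9 moves zinc out of mitochondria.

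Levels are given as CPM, the counts of a gene scaled to the library total after TMM scaling. Total counts per library ran from 31613545 to 61692136 with a median of 44268685, and 3 counts, taken as the detection floor, corresponded to 0.0482 to 0.0916 CPM. The exporters were well covered, with a median of 4360 counts per library for SLC30A1, 3242 for SLC30A7, 3006 for SLC30A5, 1897 for SLC30A9, 1137 for SLC30A4 and 1014 for SLC30A6. The metallothioneins were thinly covered, with 36 to 296 counts per library for MT2A and medians of 15 for MT1E and 0 for MT1A. Their values therefore carry more counting error than those of the exporters.

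The spread of the genes was split into shares held by the steers and by the days. With no differences at all, 26 steers would take about 19.5% of the variance and 5 days about 3.12% by their number alone. Differences between steers held 63.9% of the variance of log2 CPM for MT1A, 54.1% for SLC30A7, 53.7% for SLC30A5, 53.2% for MT2A and 23.3% for MTF1, against a median of 42.1% over all tested genes. MTF1 lay near the value that the number of steers gives by itself. Differences between days held 14.7% for SLC30A1, 6.53% for SLC30A9, 5.82% for SLC30A4 and less for the other 7, against a median of 5.66% over all tested genes. SLC30A1 was thus the gene of the list in which the day took the largest share.

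The first question was which of the genes moved over the 60 days within steers. Changes were tested with the edgeR quasi-likelihood test with steer as a block, and a gene was called when its false discovery rate (FDR) over all 18937 tested genes was under 0.10. On day 13, 2 of the 10 genes were called against day 0, 1 lower (SLC30A1) and 1 higher (SLC30A9), while 15.9% of all tested genes were called lower and 17.3% higher. On day 28, 3 were called, SLC30A1 and SLC30A4 lower and SLC30A9 higher, against 36% of all tested genes called in either direction. On day 45 SLC30A5 alone was called, and was higher, against 15.8% of all tested genes called higher and 15.2% lower. On day 60, 4 were called, SLC30A1 and SLC30A4 lower and SLC30A5 and SLC30A9 higher, against 33.4% in either direction. The share of the 10 genes that was called was thus near or under the share of all tested genes at each day, and at day 45 well under it. The median log2 change of the 10 genes was −0.06 on day 13 and 0.01 on day 28, and that of all tested genes was 0.01 on both days. The metallothioneins, MTF1, SLC30A6 and SLC30A7 were called at no day. Between neighbouring days, none of the 10 genes was called from day 13 to day 28, when 1.96% of all tested genes were called, or from day 45 to day 60, when 8.6% were. From day 28 to day 45 SLC30A1 and SLC30A4 were called, both higher, against 28.8% of all tested genes. The 4 calls of day 60 lay close to the threshold: none was made at an FDR of 0.05 or in the fit without the steer block, in which 20.3% of all tested genes were called, and 2 were made (SLC30A5 and SLC30A9) once the day 60 library of animal 40, described further on, was left out. Of 10 alternatives the day 60 call was made in 7 for SLC30A5, 5 for SLC30A4, 4 for SLC30A1 and 2 for SLC30A9. The 10 alternatives include a fit with MTF1 summed with its neighbouring gene, described further on. That fit left the counts of the exporters as they were, so its calls add little to these tallies.

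**Figure D1:**
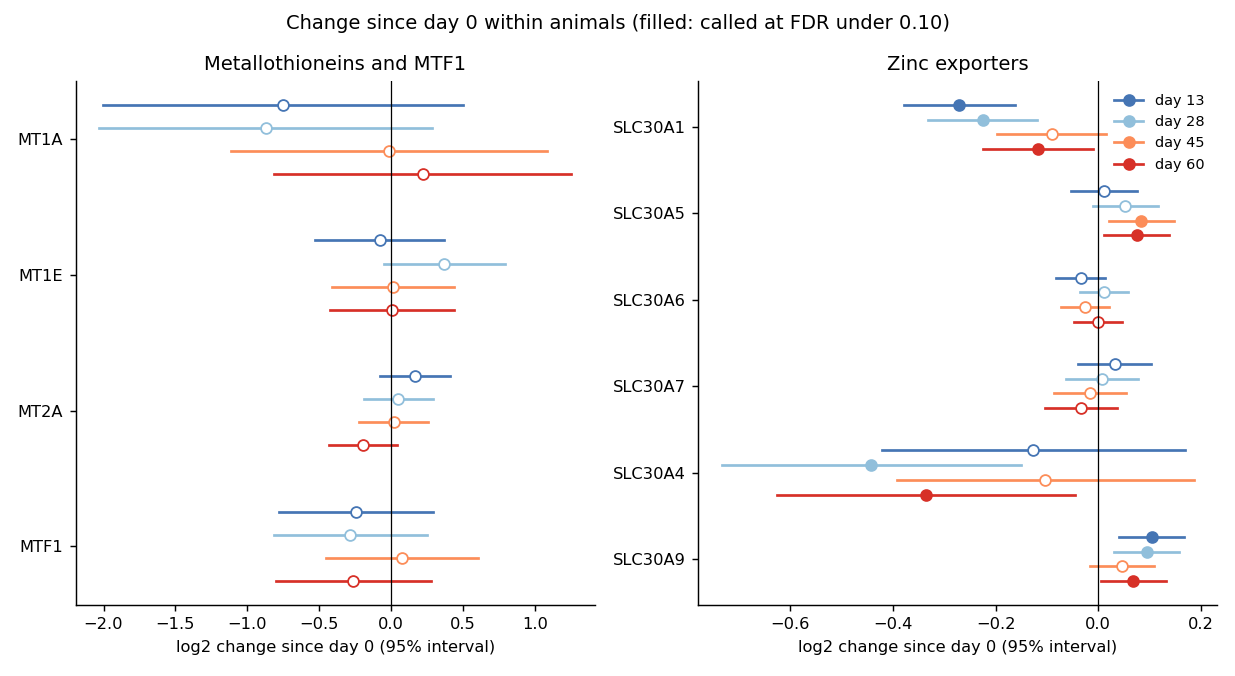
Log2 change since day 0 (x axis, points with 95% intervals) of each gene at days 13, 28, 45 and 60, from the fit with steer as a block; filled points were called at an FDR under 0.10. The axes of the panels differ: the filled points are all among the exporters, and the intervals of MT1A and MTF1 are the widest.

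SLC30A1, the plasma membrane exporter, gave the clearest change. On day 0 its level ran from 82.1 to 151 CPM with a median of 106.1 in 26 steers, and on day 13 from 65.7 to 120.6 CPM with a median of 86.9 in 25 steers. It was lower on day 13 than on day 0 in 19 of 25 steers, and on day 28 in 22 of 26. The log2 change was −0.27 ± 0.05 (SE) on day 13, so that the level fell by 17.1% (95% interval of the fold 0.769 to 0.893, FDR = 6.81e-05), and −0.22 ± 0.05 on day 28 (FDR = 0.000589). From day 28 to day 45 it rose by 0.13 on the log2 scale (SE 0.05, FDR = 0.0593), a call that was made in 5 of 10 alternatives and lost in healthy steers alone (0.07, FDR = 0.572), without the steer block (0.14, FDR = 0.197), at a mean of at least 1 CPM (0.12, FDR = 0.103), with no filter on low counts (0.13, FDR = 0.113) and at an FDR of 0.05. On day 45 the change since day 0 was −0.09 (FDR = 0.224), and on day 60 it was −0.12 (FDR = 0.0948). The gene was thus lowest on days 13 and 28, and the ranges of all days overlapped. In the 12 healthy steers alone the change was −0.19 on day 13 (FDR = 0.0845), when 15.2% of all tested genes were called, and −0.15 on day 28 (FDR = 0.146), when 25.4% were called.

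The count of steers with a lower level differed between the supplements. All 7 AAC steers with both libraries and all 7 COMBO steers were lower on day 13 than on day 0, and all 8 AAC and all 7 COMBO steers were lower on day 28. Of the INR steers 5 of 11 were lower on day 13 and 7 of 11 on day 28. Among the 4 healthy INR steers, animal 7 went from 82.1 to 91.6 CPM between day 0 and day 13, animal 30 from 90.5 to 93.5 and animal 50 from 88.7 to 86.9. Animal 10 began highest of them at 102.7 CPM and was also higher on day 13. Among the 7 BRD steers of INR, 4 were lower on day 13. Animal 23 was one of them, animal 27 went from 143 to 74.98 CPM, animal 29 from 88.98 to 65.7 and animal 43 from 116.4 to 73.7. The other 3 were higher: animal 17 went from 85.4 to 86.8 CPM, animal 39 from 97.2 to 106.5, and animal 40 reached 107.8. The medians of the groups differed on day 0 as well, with ranges that overlapped. SLC30A1 then ran from 82.1 to 143 CPM (median 97.2) in the 11 INR steers, from 91.9 to 151 (median 116.1) in the 8 AAC steers and from 100.3 to 123.7 (median 113.6) in the 7 COMBO steers. By day 13 the same groups ran from 65.7 to 107.8 CPM (median 86.9), from 74.51 to 120.6 (median 91.8, 7 steers) and from 71.3 to 100.4 (median 85.4), so that the 3 medians lay closer together than on day 0. The log2 difference on day 0 was 0.25 ± 0.11 (SE) for AAC against INR (unadjusted p = 0.0327, FDR = 1) and 0.20 ± 0.12 for COMBO against INR (FDR = 0.852), and neither was called. The test of the difference in change since day 0 called SLC30A1 for no pair of supplements at any day. The difference was −0.14 ± 0.13 (log2, SE) for AAC against INR on day 13 (FDR = 0.889), −0.27 ± 0.13 on day 28 (FDR = 1), and −0.25 ± 0.13 for COMBO against INR on day 13 (FDR = 0.862). AAC and COMBO, which share the complexed zinc, differed in that change by 0.12 on day 13 (95% interval −0.17 to 0.41).

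**Figure D2:**
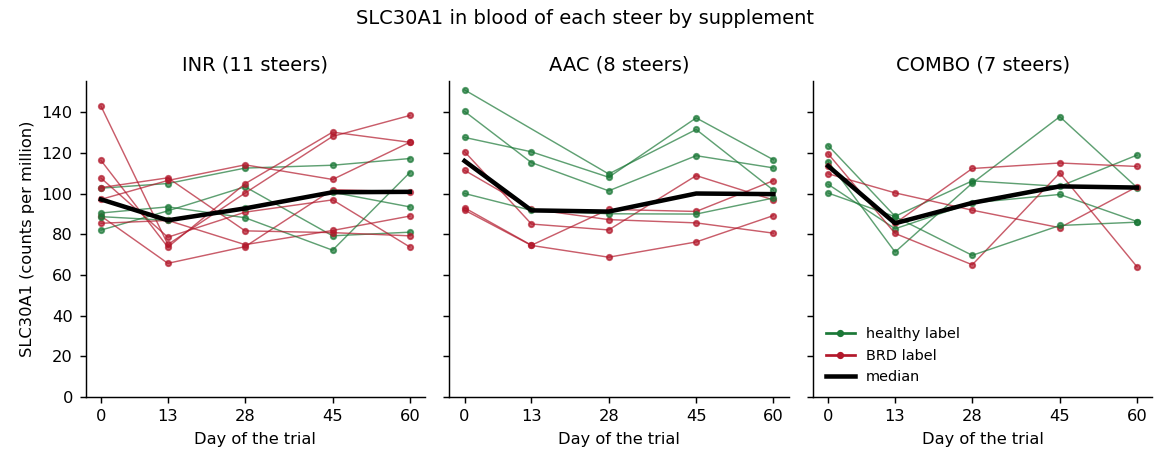
SLC30A1 in CPM (y axis) by day of the trial (x axis) in INR, AAC and COMBO; each thin line is a steer, coloured by disease label, and the thick line is the median of the group. Every line of AAC and COMBO with a day 13 library goes down from day 0 to day 13, and the lines of INR go both ways.

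MT2A was the only metallothionein with counts in every library, at 0.937 to 7.10 CPM with a median of 2.79. Its median was 2.95 CPM on day 0, 2.93 on day 13, 3.13 on day 28, 2.69 on day 45 and 2.40 on day 60. The ranges overlapped, and the highest library was 4.49 CPM on day 0 and 7.10 CPM on day 13. The log2 change since day 0 was 0.16 ± 0.12 (SE) on day 13 (FDR = 0.332) and −0.19 ± 0.12 on day 60 (FDR = 0.238). MT2A was higher than on day 0 in 15 of 25 steers on day 13 and in 7 of 26 on day 60, and it was called at neither day.

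Between supplements, MT2A had its lowest mean in INR on each of the 5 days. By the median, COMBO was lower than INR on day 13, at 2.41 against 2.91 CPM. The highest COMBO library of that day was healthy animal 3 at 7.10 CPM. Mean levels over days 13 to 60 within a steer ran from 1.21 to 4.41 CPM in the 11 INR steers (median 2.53), from 2.00 to 4.30 in the 8 AAC steers (median 2.96) and from 1.49 to 3.95 in the 7 COMBO steers (median 3.67). The 4 healthy INR steers had means of 1.21, 1.84, 2.11 and 2.25 CPM, and BRD INR animal 40, at 2.14 CPM, lay among them. The 4 healthy AAC steers had 2.00, 2.94, 2.99 and 4.23 CPM, and the 4 healthy COMBO steers 3.10, 3.71, 3.77 and 3.95 CPM. Healthy INR and healthy COMBO did not overlap, and healthy INR and healthy AAC overlapped by 1 steer (AAC animal 49). How many of all tested genes separated the healthy steers in this way was not counted. The BRD steers of INR (2.14 to 4.41 CPM) and of COMBO (1.49 to 3.67 CPM) overlapped. The healthy steers of the supplements also differed in pen label, so supplement and pen group cannot be told apart in these ranges. When the counts of days 13 to 60 were summed so that each steer gave 1 value, the log2 difference was 0.41 ± 0.20 (SE) for AAC against INR (unadjusted p = 0.0463, FDR = 0.573) and 0.46 ± 0.21 for COMBO against INR (unadjusted p = 0.0394, FDR = 1). AAC and COMBO differed by −0.05 (95% interval −0.50 to 0.40). None of the 3 was called, and edgeR called 0% of all tested genes in each, where DESeq2 called 91, 11 and 58 genes, MT2A not among them (AAC against INR, COMBO against INR, AAC against COMBO). Among healthy steers alone the same differences were 0.71 ± 0.24 (unadjusted p = 0.0114, FDR = 0.358) and 0.97 ± 0.24 (unadjusted p = 0.00162, FDR = 0.841), and among BRD steers alone 0.25 ± 0.25 and −0.06 ± 0.28. A difference in the same direction was present on day 0, before the supplemented feed, when COMBO steers had already been drenched before shipment. On that day MT2A was 2.40 ± 0.790 CPM (SD, n = 11) in INR, 3.03 ± 0.407 (n = 8) in AAC and 3.38 ± 1.03 (n = 7) in COMBO, a log2 difference of 0.53 ± 0.26 (SE) for COMBO against INR (unadjusted p = 0.0419, FDR = 0.73) and of 0.36 ± 0.25 for AAC against INR (unadjusted p = 0.149, FDR = 1), neither of which was called. The change since day 0 differed between AAC and INR by 0.10 ± 0.31 on day 13 and 0.16 ± 0.30 on day 28, with intervals that reached from −0.51 to 0.75. For COMBO against INR it was −0.18 ± 0.32 on day 13 and 0.09 ± 0.31 on day 28, with intervals that reached from −0.82 to 0.71.

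**Figure D3:**
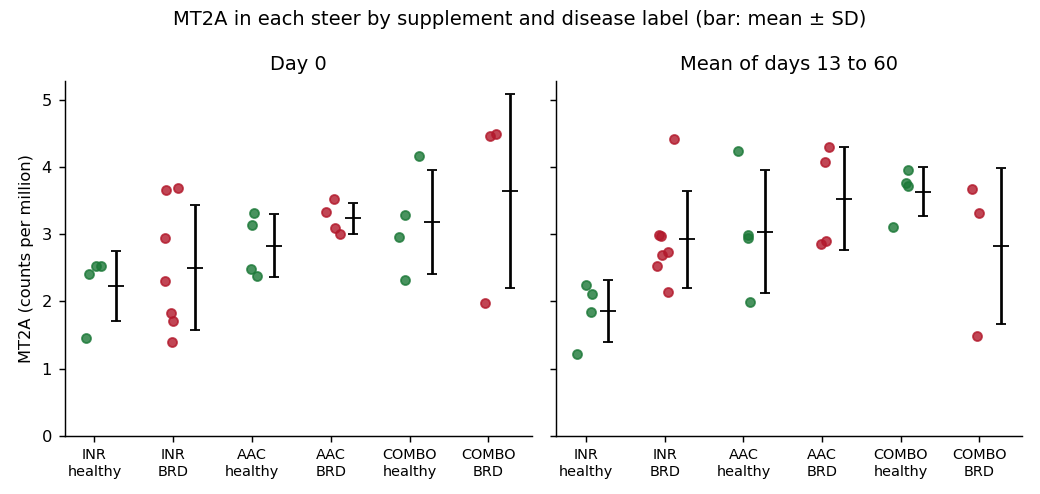
MT2A in CPM (y axis) in each steer by supplement and disease label (x axis), on day 0 and as the mean of its libraries of days 13 to 60; bars are group means ± SD. The 4 healthy INR steers lie between 1.21 and 2.25 CPM over days 13 to 60, and the 4 healthy COMBO steers between 3.10 and 3.95 CPM. The BRD steers of INR (2.14 to 4.41 CPM) and of COMBO (1.49 to 3.67 CPM) overlap.

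Mean MT2A was given by disease label within each supplement. Over days 13 to 60 the mean was 2.92 ± 0.717 CPM (SD, n = 7) in BRD INR steers against 1.85 ± 0.459 (n = 4) in healthy INR steers, and 3.53 ± 0.767 (n = 4) in BRD AAC steers against 3.04 ± 0.917 (n = 4) in healthy AAC steers. In COMBO it was 2.82 ± 1.17 (n = 3) in BRD against 3.63 ± 0.369 (n = 4) in healthy steers. Animal 16, at 1.49 CPM, lowered the BRD mean of COMBO. The other 2 BRD steers, at 3.31 and 3.67 CPM, lay within the range of the healthy ones. Without animal 16 the BRD mean was 3.49 CPM, still under the healthy mean of 3.63 CPM. This contrast of labels between the supplements was not tested. In INR, 4 of the 7 BRD steers came from a pen group that held no healthy steers, so label and pen group were partly joined there. Averaged over supplements, MT2A was 0.19 ± 0.21 (log2, SE) higher in BRD than in healthy steers on day 0 and 0.30 ± 0.21 on day 60, and it was called at no day.

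MT1A was seen in few libraries. It had 0 counts in 94 libraries and at most 20 counts in 1 library. MT1A passed the filter on low counts only through libraries of AAC and COMBO, and no INR library had more than 9 counts. A comparison of MT1A between supplements is therefore not independent of that filter. Counts above 0 came from 16 of 26 steers: 8 of 8 in AAC, 5 of 7 in COMBO and 3 of 11 in INR. At the floor of 3 counts in at least 1 library the tally was 12 of 26 steers: 5 of 8 in AAC, 5 of 7 in COMBO and 2 of 11 in INR. All 20 libraries of the 4 healthy INR steers were at 0. The median library depth was alike, at 44121620 counts for INR, 44560565 for AAC and 44191211 for COMBO libraries. The ranges were 31613545 to 61692136, 36169143 to 58556286 and 34846652 to 54306034 counts. The highest sums belonged to COMBO BRD animal 54 (52 counts over 5 libraries), INR BRD animal 29 (39), AAC healthy animal 48 (32 over 4 libraries) and AAC BRD animal 31 (27). Animals 29, 31 and 48 had MT1A counts in each of their libraries, day 0 included, and animal 29 stayed between 0.158 and 0.197 CPM. With most libraries at 0 the fitted changes of MT1A had intervals too wide to read, from 0.250 to 1.41 as a fold for day 13 against day 0. No call was made for MT1A in any comparison.

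**Figure D4:**
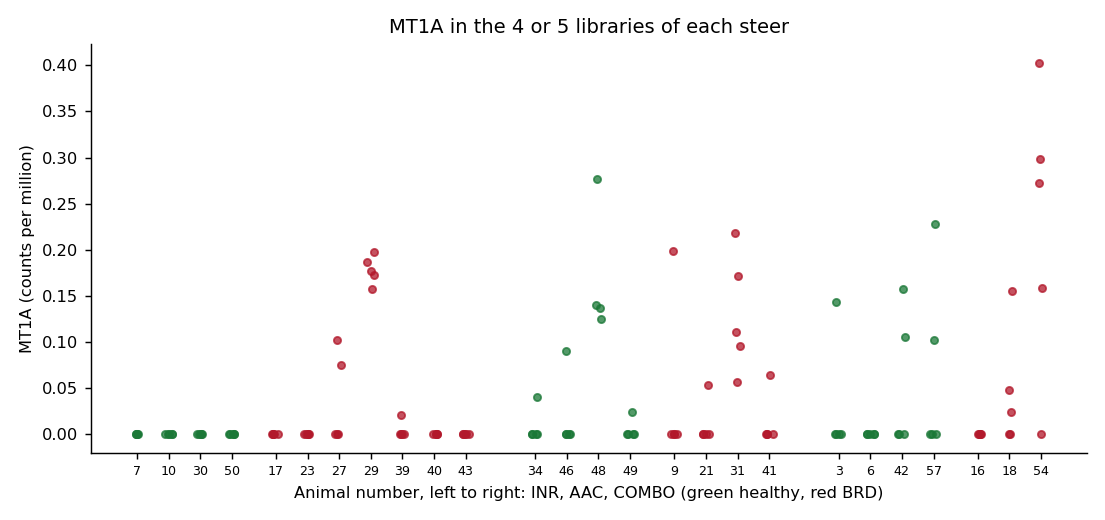
MT1A in CPM (y axis) in the libraries of each steer (x axis, steers grouped by supplement from left to right and coloured by disease label); each point is a library. Animals 29, 31, 48 and 54 have points above 0 in 4 or 5 libraries each, and 12 other steers in 1 to 3 libraries. The 4 healthy INR steers are at 0 throughout, as are INR BRD animals 17, 23, 40 and 43 and COMBO animals 6 and 16.

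MT1E was low but present in all but 5 libraries, at a median of 0.335 CPM and at most 1.08 CPM. It was higher on day 28 than on day 0 in 20 of 26 steers (log2 change 0.37 ± 0.21, FDR = 0.182). It was higher in 14 of 25 on day 13 and in 15 of 26 on days 45 and 60, and it was called at none of these days. With animal 16 left out, MT1E was called on day 28 (log2 change 0.47, FDR = 0.0972). MT1A and MT1E are members of one cluster of closely similar genes: in the RefSeq annotation of ARS-UCD2.0 the name MT1E is an alias of both MT1A and a second locus, and MT1A, MT1E, MT2A, MT3 and MT4 lie near each other on one chromosome. Reads can be split between such copies, so the levels of MT1A and MT1E are uncertain. Across all libraries MT2A went with MT1A (r = 0.47) and MT1E (r = 0.41) on the log2 scale. Libraries of one steer are not independent, and these values are descriptive.

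MTF1, the zinc sensor of the list, had the largest ratio of highest to lowest level among the 8 genes with no library at 0, from 10 to 2178 counts or 0.236 to 45.0 CPM, which is 191-fold. Its median was 8.26 CPM. Most libraries lay near the median, and 8 libraries from 8 steers lay between 28.7 and 45.0 CPM: 3 on day 0 and 5 spread over days 13, 45 and 60, from all 3 supplements and both disease labels. The gene annotated next to it, YRDC, a tRNA-modifying enzyme, was low in those same libraries, at 16.37 to 28.4 CPM, against 35.4 to 59.22 CPM elsewhere. The correlation of MTF1 with YRDC was r = −0.69 over all libraries, the most negative that MTF1 had with any tested gene. The sum of both genes ran only from 47.1 to 66.1 CPM, a coefficient of variation of 6.87%, against 78.5% for MTF1 alone and 16.8% for YRDC alone. A change in MTF1 transcription and a change in how reads were divided between the adjacent genes cannot be told apart in this table. MTF1 was called in no comparison, and the sum of both genes taken in its place changed since day 0 by −0.10 on day 13 (log2, SE 0.02, FDR = 0.00177) and by −0.06 on day 28 (FDR = 0.0552), rose by 0.08 from day 28 to day 45 (FDR = 0.00754) and changed by −0.07 from day 45 to day 60 (FDR = 0.0769). That sum was chosen after the values had been seen.

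**Figure D5:**
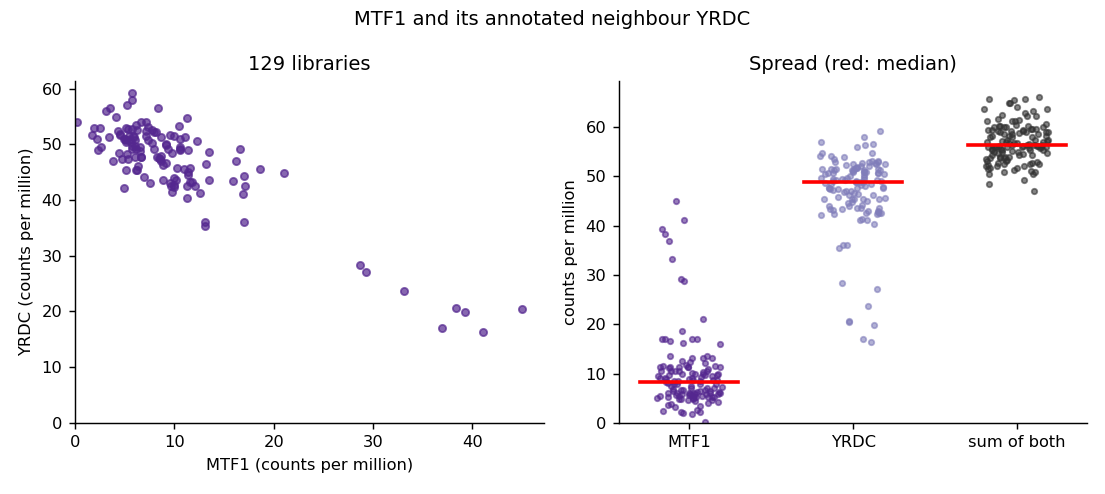
Left, MTF1 against YRDC in CPM (both axes) in all libraries; right, CPM of MTF1, of YRDC and of their sum, with the median as a red line and each point a library. The 8 libraries with the highest MTF1 have low YRDC, and the sum stays between 47.1 and 66.1 CPM.

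SLC30A5, SLC30A6 and SLC30A7, the exporters of the secretory pathway, held narrow ranges. SLC30A5 ran from 46.2 to 80.4 CPM, SLC30A6 from 19.5 to 28.0 CPM and SLC30A7 from 53.6 to 96.1 CPM, with coefficients of variation of 10.3%, 6.97% and 11.4%. SLC30A5 was 64.26 ± 6.31 CPM (SD, n = 26) on day 0 and 68.1 ± 6.38 (n = 26) on day 45. It rose by 0.08 on the log2 scale by day 45 (SE 0.03, higher in 17 of 26 steers, FDR = 0.0411) and by 0.07 by day 60 (higher in 19 of 26, FDR = 0.0705), which is smaller than the SD between steers. Without the steer block the day 45 change was as large at 0.08 (FDR = 0.221), and in healthy steers alone it was 0.04 (FDR = 0.651). Its heterodimer partner SLC30A6 changed by at most 0.03 in either direction (log2, SE 0.02) at any day, and SLC30A7 by at most 0.03 (SE 0.04). The lowest SLC30A5 value, 46.2 CPM, was that of INR BRD animal 40 on day 60, a sample that the study's methods single out for its low RNA integrity number. COMBO BRD animal 54, not singled out there, was nearly as low on that day at 46.24 CPM. Across libraries SLC30A5 went with SLC30A6 (r = 0.41) and SLC30A9 (r = 0.49), and SLC30A6 with SLC30A9 (r = 0.51).

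SLC30A4, the vesicle exporter, was the most variable exporter, from 10.9 to 67.27 CPM. Its median was 31.01 CPM on day 0, 26.9 on day 13, 21.7 on day 28, 26.59 on day 45 and 24.8 on day 60. The log2 change since day 0 was −0.44 ± 0.15 (SE) on day 28, so that the level fell by 26.4% (FDR = 0.0154), and −0.34 ± 0.15 on day 60 (FDR = 0.0784). Between days 28 and 45 it rose by 0.34 (FDR = 0.0828), a call that was made in 6 of 10 alternatives and lost in healthy steers alone (0.32, FDR = 0.421), without the steer block (0.35, FDR = 0.178), with no filter on low counts (0.33, FDR = 0.126) and at an FDR of 0.05. Lower values were seen in 17 of 26 steers on day 28 and in 15 of 26 on day 60. Without the steer block the day 28 change was −0.36 (FDR = 0.125, with 22.9% of all tested genes called), and in healthy steers alone −0.38 (FDR = 0.256). COMBO began highest, at 37.6 ± 6.37 CPM (SD, n = 7) on day 0 against 30.5 ± 7.16 (n = 8) in AAC and 25.7 ± 10.3 (n = 11) in INR, and 6 of 7 COMBO steers and 6 of 8 AAC steers were lower on day 28. In INR 5 of 11 were lower and 6 higher. The difference in change since day 0 between COMBO and INR was −0.87 ± 0.37 (log2, SE) on day 28 (unadjusted p = 0.0200, FDR = 0.972) and −0.85 ± 0.37 on day 60 (unadjusted p = 0.0233, FDR = 0.378), and was not called.

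SLC30A9, the mitochondrial exporter, was called higher than on day 0 on days 13 and 28, when SLC30A1 was called lower. Over all libraries SLC30A9 went with SLC30A1 at r = 0.27. It was 40.8 ± 3.90 CPM (SD, n = 26) on day 0, 43.8 ± 3.99 (n = 25) on day 13 and 43.6 ± 4.15 (n = 26) on day 28. It was higher in 19 of 25 steers on day 13 and in 22 of 26 on day 28, with log2 changes of 0.10 ± 0.03 (SE, FDR = 0.0101) and 0.09 ± 0.03 (FDR = 0.0168). The rise came to 7.51% on day 13 and 4.85% on day 60 (FDR = 0.0998), where the call was lost in 8 of 10 alternatives, DESeq2 (FDR = 0.115) and RLE scaling (FDR = 0.123) among them. In healthy steers alone the day 13 change was 0.09 (FDR = 0.158), and without the steer block it was 0.11 (FDR = 0.0522), when 18.5% of all tested genes were called.

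No gene of the list was called between supplements on any day. For AAC against INR the share of all tested genes called was 0.0422% on day 13, 0.0106% on day 28 and 0% on the other days. COMBO against INR reached 0.00528% on day 60 and 0% otherwise. AAC against COMBO gave 0.565% on day 0, 0.929% on day 13, 0.0317% on day 28 and 0% on days 45 and 60. Other fits called more: for AAC against COMBO on days 0 and 13, DESeq2 called 426 and 459 of the 18937 genes, and edgeR in BRD steers alone called 2364 and 1150, with 191 for AAC against INR on day 13. No gene of the list was called between supplements in these fits either. At an unadjusted p under 0.05, AAC against INR gave 6 gene and day pairs of 50, COMBO against INR 6 of 50, and AAC against COMBO 1 of 50. At the same level the share of all tested genes over the 5 days was 4.14% to 10.3% for AAC against INR, 4.94% to 6.6% for COMBO against INR and 3.75% to 13.4% for AAC against COMBO. On day 0, before supplemented feed, the pairs were SLC30A1 for AAC against INR, MT2A (given above) and SLC30A4 for COMBO against INR (log2 difference 0.63 ± 0.30, SE, unadjusted p = 0.0364, FDR = 0.722), and MTF1 for AAC against COMBO (−1.18 ± 0.48, unadjusted p = 0.0154, FDR = 0.299). In that contrast YRDC, the gene next to MTF1, went the other way (0.33, unadjusted p = 0.0347, FDR = 0.409), the sum of MTF1 and YRDC gave an unadjusted p of 0.939, and COMBO held 2 of the 3 day 0 libraries with high MTF1, those of animals 6 (45.0 CPM) and 57 (36.9 CPM). After day 0, MT2A made up 4 of the other 9, and as these share steers they are not independent of each other. It differed from INR in AAC by 0.54 ± 0.24 on day 28 (unadjusted p = 0.0308, FDR = 0.698) and by 0.59 ± 0.25 on day 60 (unadjusted p = 0.0186, FDR = 0.823), and in COMBO by 0.62 ± 0.25 on day 28 (unadjusted p = 0.0173, FDR = 0.922) and by 0.57 ± 0.26 on day 60 (unadjusted p = 0.0286, FDR = 0.735). Of the secretory exporters, SLC30A5 differed between AAC and INR by 0.15 ± 0.08 on day 13 (FDR = 0.482) and by 0.16 ± 0.07 on day 45 (FDR = 0.878). SLC30A6 differed from INR by 0.11 ± 0.05 in AAC on day 13 (FDR = 0.441) and by −0.11 ± 0.05 in COMBO on day 45 (FDR = 0.94). The last pair was MT1A for COMBO against INR on day 45 (unadjusted p = 0.015, FDR = 0.893), at levels where most libraries were at 0. MT1A passed the filter on low counts only through AAC and COMBO libraries. A difference between supplements in the change since day 0 was called for no gene of the list, when 0.94% of all tested genes were called for AAC against COMBO on day 13, 0.0106% on day 28 and 0% in the other 10 of 12 contrasts.

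The healthy and BRD steers did not differ in any call of the list either. The share of all tested genes called was 0.0158% on day 0, 0.00528% on days 28 and 60, 0% on days 13 and 45, and 0% for the change since day 0. SLC30A6 was 0.12 ± 0.04 (log2, SE) lower in BRD steers on day 13 (unadjusted p = 0.00522, FDR = 1), which was the smallest unadjusted p of the list in this comparison. Where only the pen groups that held both labels were compared, with pen as a term, SLC30A9 was lower in BRD steers on day 0 (log2 difference −0.22 ± 0.07, SE, FDR = 0.0585), when 8.22% of all tested genes were called. On days 13, 28, 45 and 60 its difference in those pens was −0.20, −0.19, −0.07 and −0.08, and it was not called.

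Other zinc and metal genes gave a like picture. Of the other metallothioneins and exporters, MT3 was at a median of 4 counts and was not called on any day, and MT4, SLC30A2, SLC30A3, SLC30A8 and SLC30A10 had counts above 0 in at most 8 libraries each and were not tested. Of the ZIP family, which imports zinc into the cytosol, 12 of 14 genes were tested, and on day 13 SLC39A2 was higher and 3 were lower, among them SLC39A1 (log2 change −0.22 ± 0.05, FDR = 9.08e-05) and SLC39A3 (−0.12 ± 0.05, FDR = 0.0826). That is 4 of 12, when 17.3% of all tested genes were higher and 15.9% lower. The median change of the list was −0.04, against 0.01 over all tested genes. Of 4 other genes under MTF1 control none was called on days 13, 28 or 45. On day 60, when 33.4% of all tested genes were called, 2 were higher: SELENOH, a selenoprotein (0.11 ± 0.05, FDR = 0.0562), and SLC40A1, the iron exporter ferroportin (0.26 ± 0.10, FDR = 0.0476), which are named after their values were seen. Of 10 copper-handling genes only ATP7B, a copper-exporting ATPase, was called on day 13 (0.34 ± 0.10, FDR = 0.00436), fewer than the share of all tested genes that day. These lists had no call between supplements over days 13 to 60, when 0% of all tested genes were called.

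Lists of genes related to metallothionein induction, and markers of blood cell types, were also compared between day 0 and day 13, when 15.9% of all tested genes were lower and 17.3% higher. Glucocorticoids, hormones of the stress response, are known to induce metallothionein genes. Of 8 other genes that they induce, 7 were lower on day 13, with a median log2 change of −0.55. FKBP5, which tempers the glucocorticoid receptor, fell by 0.84 (SE 0.13, FDR = 5.14e-07), TSC22D3 by 0.46 (SE 0.08, FDR = 9.23e-06) and CXCR4 by 0.97 (SE 0.15, FDR = 4.09e-07). Of 5 cytokine feedback genes downstream of STAT3, another route to metallothionein induction, 2 were lower, SOCS1 (log2 change −0.68, SE 0.16, FDR = 0.000948) and SOCS3 (−0.35, SE 0.12, FDR = 0.0185). The blood also changed in its cell type markers. Of 5 monocyte markers 3 were lower on day 13 (median log2 change −1.19) and 4 of 6 measured neutrophil markers were lower (−0.59), while all 8 erythroid markers were higher (3.04) and 5 of 6 platelet markers were higher (0.44). None of 6 T cell markers was called, 1 of 5 B cell markers was higher, and of 5 natural killer and cytotoxic markers 1 was higher and 2 were lower. The summed level of the monocyte markers had a median of 1070 CPM on day 0 and 650.2 on day 13, with CSF1R as the most abundant gene over all libraries. The summed erythroid markers, led by HBA1, had medians of 230 and 6104 CPM, with a highest library of 84860 CPM on day 13. Fewer cells of a type and less RNA per cell cannot be told apart in whole blood. Over all libraries the mean log2 level of the T cell markers went with SLC30A1 at r = −0.57 and that of the neutrophil markers with SLC30A4 at r = 0.54. SLC30A9 had values of like size with the neutrophil (r = −0.50), B cell (r = 0.49), T cell (r = −0.48) and monocyte markers (r = −0.46). For MT2A the largest in size among the 7 marker lists was that of the platelet markers (r = −0.22). The part of cell makeup in the changes of SLC30A1, SLC30A4 and SLC30A9 was not tested.

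The genes whose pattern over all libraries was most like that of SLC30A1 were UBE2W (r = 0.69), CSNK1A1 (r = 0.69), SOS1 (r = 0.68), ERAP2 (r = 0.67) and HIF1A (r = 0.66), by Pearson's r of log2 CPM over 18937 genes. For MT2A they were SURF4 (r = 0.60), DPP3 (r = 0.59), BAK1 (r = 0.58), SLC25A5 (r = 0.57) and CALR (r = 0.57). For MT1E the highest was CHST12 (r = 0.48) and for MT1A it was ENTR1 (r = 0.55), at levels where counting error is large. No other gene of the list of 10 was among the 5 most alike of any of these 4.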

How the data were processed

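The deposited table held raw counts per gene, which the authors made from stranded mRNA libraries of whole blood by trimming reads with Trimmomatic (0.39), aligning them with HISAT2 (2.1.1 in the submitters' processing notes, while the study's methods give another version) to the bovine assembly ARS-UCD1.3, assembling with StringTie (2.2.0) and converting coverage to counts with a script set to a read length of 150. Such counts follow the assembled transcripts, so reads of adjacent or near-identical genes can be divided differently between libraries. The authors left out the library of 1 animal and day. The 10 genes, the other lists and the tests were chosen with earlier results of these data known. All 10 symbols were found in the RefSeq gene table of ARS-UCD2.0, which was used only for names and the order of genes.

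Here filterByExpr, run with the 30 combinations of supplement, disease label and day as groups, kept 18937 genes, which were fitted with the edgeR quasi-likelihood test (edgeR 4.0.16, R 4.3.3) with TMM scaling and a common dispersion, after the study's own settings. Changes over days, and differences in change since day 0, were fitted with steer as a block. Supplements and disease labels at a day were compared through a mean for each of the 30 combinations, and over days 13 to 60 through counts summed per steer. Calls were made at an FDR under 0.10 over all tested genes. Log2 CPM for correlations used a prior count of 2. Steers were taken as the replicates, although the supplements were assigned to pen groups. The fits of supplements had no pen term, so steers of the same pen group counted as independent. The fit of the 30 combinations also had no steer block. Libraries of the same steer on different days correlated in their deviations from the group means (median r = 0.371, over 0.1 in 99.6% of pairs), against −0.0101 for different steers, so the block follows the animal numbers of the labels. Alternatives were trended dispersion, RLE scaling, DESeq2 (1.42.0), limma voom (limma 3.58.1) with steer as a block, other filters, an FDR of 0.05, subsets of steers and leaving out each steer. Further alternatives had no steer block, left out the day 60 library of animal 40, or took the sum of MTF1 and YRDC in place of MTF1. The scripts were tested on simulated data. The intervals and the detection floor cover counting error and the modelled spread between libraries. Genes chosen for pattern likeness were the 5 of highest r for MT1A, MT1E, MT2A and SLC30A1, and genes of the other lists were named where called on day 13, up to 3 per list by smallest p, with SELENOH and SLC40A1 added after their day 60 values were seen. Figures were drawn with matplotlib (3.10.9).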

Additional observations from a re-analysis of the deposited data

Results flagged for a closer look

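A library was set apart when its distance to the nearest library of its supplement, disease label and day was large for the range of that group (Dixon's criterion at 95%, groups of 4 to 7). Of 234 groups and genes 21 held such a library, or 8.97%, where chance gives about 1 in 20. For MT1A it was 11 of 18 groups, in 9 of which the other libraries were all at 0, where ties fix the criterion. For the other 9 genes it was 10 of 216, or 4.63%.

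For MT1A, INR BRD animal 29 stood above its group on day 0 (0.197 CPM), day 13 (0.187), day 28 (0.177) and day 45 (0.172), AAC BRD animal 31 on day 28 (0.111) and day 45 (0.0959), and healthy AAC animal 48 on day 0 (0.136) and day 60 (0.277). In COMBO the healthy animals 42 (0.105 on day 0), 3 (0.144 on day 13) and 57 (0.102 on day 60) stood alone above libraries at 0.

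For MT2A, INR BRD animal 29 was high on day 45 at 5.57 CPM against at most 3.39 in the other 6 steers of its group, and healthy INR animal 7 was low on day 0 at 1.46 CPM. For MTF1, AAC BRD animal 31 on day 0 (16.6 CPM), AAC BRD animal 21 on day 45 (39.2 CPM) and healthy INR animal 50 on day 0 (29.3 CPM) were high. For SLC30A4, AAC BRD animal 21 (65.6 CPM) and INR BRD animal 27 (54.57 CPM) were high on day 60. For SLC30A5, INR BRD animal 17 was high on day 13 (80.4 CPM) and INR BRD animal 40 low on day 60 (46.2 CPM). For SLC30A7, healthy AAC animal 49 was low on day 45 (56.03 CPM).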

How the results depend on the processing

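Calls between supplements at each day, over days 13 to 60 and in the change since day 0 were 0 under each alternative run for them. Limma voom with steer as a block (within-steer correlation 0.32) was run only for supplements and disease labels at each day. For BRD against healthy steers the count was 0, and 1 in the pens that held both labels. No called change turned its direction in any alternative. Counts for days 13, 28, 45, 60 and the steps between days were 2, 3, 1, 4 and 2. In healthy steers alone they were 1, 1, 0, 1 and 0, with fewer steers. With no replicate block they stayed at 2 on day 13, were 2 on day 28, and were 0 on day 45, 0 on day 60 and 0 over the steps. For day 60 the count was 0 at an FDR of 0.05 and 0 with no filter on low counts, and 2 with RLE scaling and 2 without the day 60 library of animal 40. Over the steps it was 0 at an FDR of 0.05, 0 with no filter on low counts, and 4 with MTF1 and YRDC summed. At a mean of at least 1 CPM the step count was 2 with other genes, as SLC30A1 was lost and SLC30A6 gained (FDR = 0.0724). The cause of these shifts was not tested.

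Leaving out each of 26 steers gave 2 to 2 calls on day 13, 3 to 4 on day 28, 0 to 1 on day 45, 0 to 4 on day 60 and 0 to 2 over the steps. The call gained on day 28 was MT1E without animal 16 (FDR = 0.0972) and SLC30A5 without animal 54 (FDR = 0.0355). SLC30A1 and SLC30A9 on days 13 and 28 and SLC30A4 on day 28 were called without any one of the 26 steers. SLC30A5 on day 45 was lost without animal 31 (FDR = 0.101). On day 60 SLC30A1 was called in 8 of 26 such fits, SLC30A4 in 16, SLC30A5 in 18 and SLC30A9 in 10. The steps of SLC30A1 and SLC30A4 from day 28 to 45 were called in 22 and 14. For changes since day 0, 8 steers were left out in turn for supplements and 16 for disease labels, with 0 calls. MT1A was above 3 counts in 26 libraries, so its values carry the most counting error of the list.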

Other observations

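MT3, a metallothionein known from brain, had counts above 0 in 82 libraries, at a median of 4 and at most 20 counts. SLC30A4 went with its annotated neighbour LOC101902552 at r = 0.75 over all libraries, and SLC30A9 went against its neighbour LOC784473 at r = −0.42. The sum of SLC30A9 and LOC784473 had a coefficient of variation of 7.56%, against 9.87% for SLC30A9 alone. SLC30A9 had its most negative correlation with SIPA1 (r = −0.82), SLC30A1 with PVRIG (r = −0.73), and SLC30A7 with EXOSC5 (r = −0.70). These correlations are over libraries that share steers and are given as descriptions.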
